A study of Mus musculus with 6 samples.

Results

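Respiratory complexes II to V are the enzymes of the inner mitochondrial membrane that oxidise succinate (complex II), pass electrons by way of cytochrome c to oxygen (complexes III and IV) and make ATP (complex V). Their nuclear genes were described in mouse bone marrow samples sorted for erythroblasts, the nucleated precursors of red cells. Members were probe sets whose annotation gives 1 gene symbol, that symbol being Sdha, Sdhb, Sdhc, Sdhd, Cyc1 or Cycs or beginning with Uqcr, Atp5, Cox4, Cox5, Cox6, Cox7 or Cox8. This gave 86 of the 22626 probe sets tested, for 47 of 12393 genes. Complex II had 4 genes (7 probe sets), complex III 9 genes (16), complex IV 16 genes (32), complex V 17 genes (28) and the carrier cytochrome c 1 gene (3). A gene was represented by its brightest probe set, that is the one with the highest mean over the arrays. Genes of the mitochondrial genome are not among these symbols.

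The study compared 3 samples from mice expressing a mutant RPS19 transgene (RPS19R62W) with 3 samples from wild type mice, called mutant and wild type here. RPS19 is a protein of the small ribosomal subunit that is often mutated in Diamond-Blackfan anaemia, the inherited anaemia named in the series title. All samples were described as FVB/N bone marrow erythroblasts, sorted for the transferrin receptor CD71. The transgene's promoter and the age of the mice were not given in the sources used here. Nor do the labels say whether each sample is a different mouse, so that p-values reflect the spread between samples, which could be technical.

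The respiratory chain hands electrons from nutrients to oxygen through protein complexes that pump protons, and ATP synthase uses the proton gradient. Succinate dehydrogenase is at once complex II and an enzyme of the citric acid cycle, which also supplies the succinyl-CoA from which haem is made. Erythroblasts make haem in their mitochondria and later clear these organelles as reticulocytes mature.

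The wild type arrays lay close together. Between pairs of arrays, the SD of the log2 difference over the 47 member genes was 0.22 to 0.28 within the mutant group and 0.053 to 0.14 within the wild type group (0.34 to 0.51 and 0.14 to 0.18 over all genes). The SD of a gene was larger in the mutant group for 63.8% of member genes and 77.7% of all genes. The tests below took 1 variance for both groups. Spiked polyadenylated controls, added to the RNA before labelling, averaged 12.83 ± 1.08 on mutant and 8.75 ± 0.0161 on wild type arrays (mean log2, SD, n = 3 each). The 3' minus 5' signal of the Gapdh control was 0.27 ± 0.0319 on mutant and -0.07 ± 0.0192 on wild type arrays, and that of actin 1.70 ± 0.157 and 1.31 ± 0.0535 (SD, n = 3 each). An exact permutation test gave p = 0.1 for each of these control values, the smallest that 3 arrays against 3 allow. Mutant replicate 3 alone read low for Xist (5.78, against 11.38 to 12.07 on the other arrays) and high for the Y-linked Eif2s3y (8.34, against 2.23 to 2.45). Rps19 itself read 12.06, 12.10 and 12.09 on mutant and 12.13, 12.10 and 12.06 on wild type arrays, which is no check of the labels because the sources used here do not say whether the probe set reads the transgene. Of 14 erythroblast markers 12 were measured, with medians of 9.26, 9.69 and 9.97 on mutant and 9.79, 9.79 and 9.66 on wild type arrays and summed signals of 13.46, 14.09 and 14.12 on mutant and 14.08, 14.05 and 14.01 on wild type arrays (log2). Of their 18 probe sets 1 was called higher and 2 lower (16.7%, against 2.33% of all). The single-symbol probe set of Hba-a1 was near the low end of the signal range (2.87 to 3.12 and 3.06 to 3.27). Of other marrow cells, 10 of 11 B cell markers were measured. Their summed signals were 9.76, 11.75 and 10.71 on mutant and 9.77, 9.76 and 9.64 on wild type arrays (log2), highest on mutant replicate 2. For 11 of 12 neutrophil markers the sums were 15.62, 14.49 and 14.04 on mutant and 15.04, 15.04 and 14.94 on wild type arrays. Mutant replicate 1 was thus the lowest array in erythroblast and the highest in neutrophil markers. The neutrophil sum was above the erythroblast sum on every array except mutant replicate 3 (14.04 against 14.12). The share of each cell type in the samples was not measured. For 10 of 10 macrophage markers the sums were 10.60 to 11.44 on mutant and 11.24 to 11.40 on wild type arrays. The sums did not overlap for the 6 of 7 megakaryocyte markers measured (9.05 to 9.75 in mutant, 8.79 to 8.84 in wild type samples) or for the 5 of 7 T cell markers measured (6.94 to 6.99 in mutant, 7.11 to 7.23 in wild type samples). The part of controls, sex and other cells in the results below was not tested, and in bulk samples fewer cells of a type and less RNA per cell cannot be told apart.

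Of the 86 member probe sets, 6 passed the test, 4 higher and 2 lower in the mutant (limma over all 22626 probe sets, adjusted p under 0.05). The background was 0.941% higher and 1.39% lower among all probe sets, or 2.33% in either direction, against 6.98% of the members. Those that fell measured Sdhd, a membrane anchor of succinate dehydrogenase, and Uqcrq, a small subunit of complex III. Those that rose measured Uqcr10 (2 probe sets), Cox7c and Atp5a1. For Uqcr10 and Atp5a1 the brightest probe set of the same gene did not pass. Counted once per gene by the brightest probe set, only Sdhd was called among the 47 genes, against a background of 0.331% of 12393 genes (0.153% lower).

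**Figure D1:**
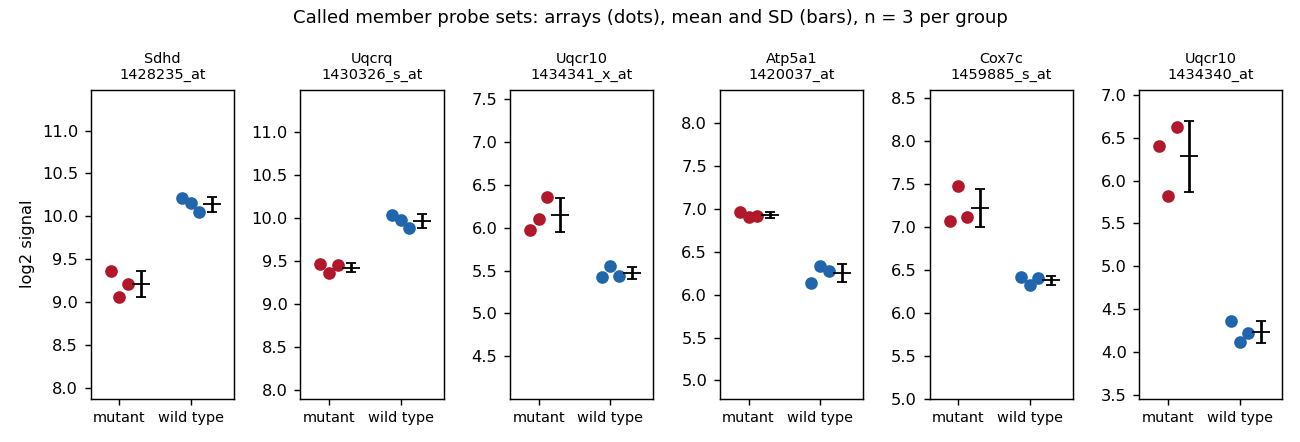
Log2 signal of the 6 called member probe sets (vertical axes, each spanning the same range) on 3 mutant (left, red) and 3 wild type arrays (right, blue), with bars for the mean and SD. The groups do not overlap in any panel, and the Uqcr10 probe set 1434340_at has the widest gap, 6.28 on mutant against 4.24 on wild type arrays.

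The number of calls depended on which arrays entered the fit, for members and for the whole array. Without wild type replicate 1, 2 or 3, 0 member probe sets were called by limma, with 0.172%, 0.159% and 0.212% of all probe sets called. There 18, 18 and 26 members had an unadjusted p under 0.05 (12.8%, 11.7% and 13.1% of all probe sets). The differences themselves moved little, with -0.90, -0.93 and -0.98 for Sdhd, 2.11, 1.98 and 2.03 for 1434340_at of Uqcr10 and 0.85, 0.81 and 0.85 for Cox7c. There were 12 calls without mutant replicate 1 (with 11.2% of all probe sets called), 3 without mutant replicate 2 (0.897%) and 17 with array weights (11.8%). Without mutant replicate 2 the calls of Uqcrq (adjusted p = 0.099, limma), of 1420037_at of Atp5a1 (adjusted p = 0.057) and of 1434341_x_at of Uqcr10 (adjusted p = 0.10) were lost. So was that of Sdhd in the fit of 1 probe set per gene, which then held 0 member calls (0.242% of all genes called). In that setting 21 member probe sets had an unadjusted p under 0.05 (16.7% of all probe sets).

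All arrays of one group lay on one side of the other group for 40 member probe sets, 15 above and 25 below in the mutant. Among all probe sets 11.4% lay above and 14.7% below, or 26.1% in either direction, against 46.5% of the members. Members are bright, and among probe sets with a mean of at least 8, a level chosen after values were seen, the share was 45.5% of 66 members against 35.0% of all. At an unadjusted p under 0.05 there were 10 higher and 18 lower member probe sets (8.64% and 10.5% of all probe sets, 19.1% in either direction). The median difference over the 47 genes was -0.03, mutant minus wild type on the log2 scale, beside -0.0044 over all genes, with 27 genes lower in the mutant (57.4%, against 50.9% of all genes). The genes thus lay on both sides of a median close to that of the array.

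**Figure D2:**
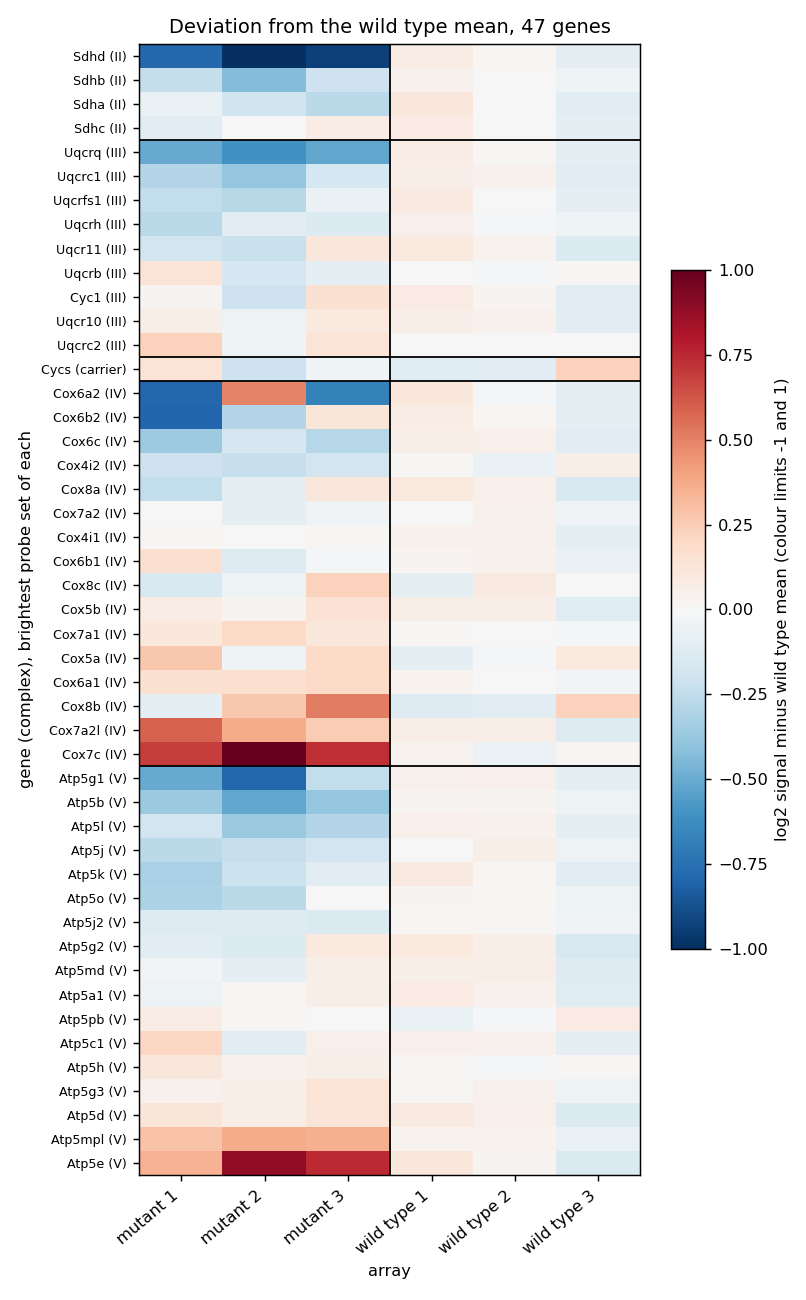
Log2 signal minus the wild type mean (colour, from -1 to 1) for the brightest probe set of each of the 47 genes (rows, by complex) on 3 mutant (left) and 3 wild type arrays (right). Sdhd, at the top, is low and Cox7c and Atp5e are high on all mutant arrays, while Cox6a2 and Cox6b2 differ among the mutant arrays.

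In complex II, Sdhd fell to 9.36, 9.06 and 9.21 on the mutant arrays, against 10.22, 10.16 and 10.05 on the wild type arrays (log2 signal). Every mutant array was below every wild type array, with a gap wider than either group's spread. The difference was -0.93 ± 0.112 (log2, SE, 95% confidence interval -1.20 to -0.67), which is 1.91-fold lower (adjusted p = 0.012, limma). For this probe set the adjusted p ran from 0.00093 to 0.11 over the alternatives, and the difference from -1.03 to -0.86; the average of both Sdhd probe sets differed by -0.56 and was not called. A dimmer Sdhd probe set read 6.03, 6.05 and 6.15 in mutant and 6.16, 6.28 and 6.33 in wild type samples, without overlap, and its difference of -0.18 ± 0.0954 did not pass (adjusted p = 0.36).

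The other subunits of complex II did not pass. Sdhb, the iron-sulphur subunit, read 9.94, 9.75 and 9.97 in mutant and 10.22, 10.18 and 10.14 in wild type samples, which did not overlap (-0.29 ± 0.0992, adjusted p = 0.18, limma). The flavoprotein gene Sdha read 10.21, 10.08 and 10.01 in mutant and 10.39, 10.28 and 10.16 in wild type samples, and there the groups overlapped (-0.18 ± 0.105). Its dimmer probe set went the other way, with 9.36, 9.45 and 9.40 in mutant and 9.36, 9.38 and 9.33 in wild type samples (0.05 ± 0.0864, with overlap). Sdhc, the other membrane anchor, read 8.15, 8.26 and 8.34 in mutant and 8.35, 8.27 and 8.18 in wild type samples (-0.02, 95% confidence interval -0.25 to 0.21), again with overlap. Its dimmer probe set read 7.30, 7.57 and 7.53 in mutant and 7.79, 7.88 and 7.96 in wild type samples, without overlap (-0.41 ± 0.111, adjusted p = 0.11, limma). On the brightest probe sets the mutant mean was below wild type in all 4 genes, with a median difference of -0.23, although Sdhc took a value of 0.03 without mutant replicate 1 and 0.02 without wild type replicate 1.

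Promoter sequence is shown for the complex II genes, of which 1 was called and the others were not, and for the complex III and IV genes with called rises. Nuclear respiratory factor 1 (NRF1) and the ETS factor GABP are known activators of many nuclear respiratory genes. Both strands of the 250 bases before each start were searched. The letters sought were GCGCANGCG (a core of the NRF1 motif) and CCGGAAG (a form of the motif bound by ETS factors). Capitals mark matches, which do not overlap each other in the lines shown, and other forms of either motif were not searched. Sequences are the 100 bases before the start, from RefSeq (GRCm38.p6), 5′ to 3′ on the gene's strand.
Sdhd, chr9:50603850-50603949, minus strand: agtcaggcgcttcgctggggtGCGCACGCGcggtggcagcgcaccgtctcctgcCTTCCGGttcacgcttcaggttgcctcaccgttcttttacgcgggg
Sdha, chr13:74350241-74350340, minus strand: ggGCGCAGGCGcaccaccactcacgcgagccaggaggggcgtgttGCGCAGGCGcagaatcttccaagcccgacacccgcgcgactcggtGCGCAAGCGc
Sdhb, chr4:140961171-140961270, plus strand: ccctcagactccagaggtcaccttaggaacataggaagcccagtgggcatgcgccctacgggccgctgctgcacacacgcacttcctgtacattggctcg
Uqcr10, chr11:4704345-4704444, minus strand: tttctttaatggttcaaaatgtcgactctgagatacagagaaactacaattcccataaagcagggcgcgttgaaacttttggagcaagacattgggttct
Cox7c, chr13:86046796-86046895, minus strand: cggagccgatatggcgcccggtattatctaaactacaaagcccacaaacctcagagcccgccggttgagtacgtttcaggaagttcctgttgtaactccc

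Sdhd held 1 match to each motif and Sdha held 3 to the NRF1 motif, whereas Sdhb, Uqcr10 and Cox7c held 0 of either in the 250 bases. Only the letters given were searched, so 0 matches do not mean that a promoter lacks sites for these factors. The table held 35 of the 47 genes, with 38 promoters, and Sdhc, Uqcrq and Atp5a1 are among the others. The NRF1 motif was in 23.7% of member promoters and 5.16% of all 32851, and the ETS motif in 23.7% and 6.91%. The 9 genes with the NRF1 motif (Atp5c1, Atp5g2, Atp5h, Atp5k, Atp5l, Cox6a1, Cycs, Sdha and Sdhd) had differences from -0.93 to 0.17 with a median of -0.05. The 9 genes with the ETS motif ranged from -0.93 to 0.66 with a median of -0.10, so genes with either motif lay on both sides of 0.

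In complex III, which moves electrons from ubiquinol to cytochrome c, Uqcrq read 9.46, 9.36 and 9.45 in mutant and 10.04, 9.98 and 9.88 in wild type samples. It fell by 0.54 (log2, SE 0.0933, 95% confidence interval -0.76 to -0.32, adjusted p = 0.036, limma), and the groups did not overlap. In the fit of 1 probe set per gene its adjusted p was 0.062, so it was not called there. Of its 3 dimmer probe sets, the brightest read 4.72, 4.74 and 4.96 in mutant and 4.65, 4.84 and 4.90 in wild type samples, and the differences of the 3 ran from -0.12 to 0.05.

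Uqcr10, another small subunit of complex III, gave different answers on its 3 probe sets. The brightest (1424364_a_at) read 9.85, 9.74 and 9.89 in mutant and 9.86, 9.84 and 9.68 in wild type samples, a difference of 0.03 (95% confidence interval -0.20 to 0.26). By contrast, 1434340_at rose to 6.40, 5.82 and 6.62 in mutant samples, against 4.37, 4.12 and 4.22 in wild type samples. The difference was 2.04 ± 0.201 (log2, SE, adjusted p = 0.0060, limma). Its wild type signal lay below the array medians of 5.35 to 5.38, and no detection call was used, so no fold is given. The third, 1434341_x_at, read 5.97, 6.10 and 6.36 in mutant and 5.42, 5.55 and 5.44 in wild type samples (0.67 ± 0.122, adjusted p = 0.040, limma). It lost its call when the arrays were quantile normalised again without controls (adjusted p = 0.054). The suffix _x_at marks probes that the array's design allows to match other transcripts too. With each gene's probe sets averaged, Uqcr10 was the member gene called (0.91), and Sdhd was not (-0.56).

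The remaining complex III genes did not pass. Cyc1, whose haem protein reduces cytochrome c, read 11.21, 10.97 and 11.33 in mutant and 11.26, 11.21 and 11.07 in wild type samples (-0.01, 95% confidence interval -0.29 to 0.27, and 0.08 after renewed quantile normalisation without controls). The core protein gene Uqcrc2 read 10.90, 10.63 and 10.81 in mutant and 10.67, 10.67 and 10.68 in wild type samples (0.11 ± 0.101), with overlap. Its second probe set read 10.34, 10.09 and 10.41 in mutant and 10.68, 10.60 and 10.52 in wild type samples, which did not overlap and differed by -0.32 ± 0.114 (adjusted p = 0.19, limma). The 2 probe sets of Uqcrc2 thus have opposite signs. Uqcrc1, the other core protein gene, differed by -0.28 ± 0.104, Uqcrfs1, which encodes the Rieske iron-sulphur protein, by -0.20 ± 0.105, and Uqcrh, the hinge protein gene, by -0.18 ± 0.0933 (adjusted p from 0.20 to 0.37, limma). The mutant mean was the lower one in 7 of the 9 genes, with a median difference of -0.10, but -0.03 without mutant replicate 2 and -0.20 without mutant replicate 3.

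Cytochrome c (Cycs), the soluble carrier between complexes III and IV that also activates caspases once released, did not pass. Its brightest probe set read 11.99, 11.65 and 11.81 in mutant and 11.73, 11.75 and 12.08 in wild type samples, with overlap (-0.03 ± 0.139, and 0.06 after renewed quantile normalisation without controls). Its next brightest read 10.76, 10.58 and 10.69 in mutant and 11.13, 11.13 and 10.99 in wild type samples, without overlap, and differed by -0.41 ± 0.0971 (adjusted p = 0.078, limma).

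Complex IV, cytochrome c oxidase, transfers the electrons to oxygen. Cox7c, one of its small subunits, read 7.07, 7.47 and 7.11 in mutant and 6.41, 6.32 and 6.40 in wild type samples. It rose by 0.84 ± 0.126 (log2, SE), or 1.79-fold, in the probe set fit (adjusted p = 0.026, limma), without overlap between the groups, and missed the threshold in the gene fit (adjusted p = 0.053). Its other probe set read 4.37, 4.72 and 4.44 in mutant and 4.57, 4.42 and 4.25 in wild type samples, with overlap (0.10 ± 0.132). The called probe sets of Cox7c (1459885_s_at) and Uqcrq (1430326_s_at) are left out of the alternative without _x_at and _s_at probe sets. Cox7a2l, a homologue of the Cox7a subunits that joins complexes III and IV into supercomplexes, had 3 probe sets with differences of 0.41, 0.41 and 0.28, all above wild type without overlap (adjusted p from 0.13 to 0.22, limma). The brightest of these read 10.98, 10.76 and 10.64 in mutant and 10.45, 10.45 and 10.26 in wild type samples. Cox7a2l and Cox5a were the complex IV genes with at least 3 probe sets whose differences all had 1 sign, and Cox5a, which helps form the enzyme's matrix side, differed by 0.13 to 0.15 with overlapping groups.

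Several subunits of cytochrome c oxidase have tissue isoforms, and none of those passed. Cox4i1, the ubiquitous form, read 12.03, 12.02 and 12.03 in mutant and 12.06, 12.06 and 11.93 in wild type samples (0.01, 95% confidence interval -0.20 to 0.22). Cox4i2, known from lung and hypoxic cells, read 3.59, 3.57 and 3.62 in mutant and 3.81, 3.73 and 3.86 in wild type samples (-0.21 ± 0.0884, adjusted p = 0.26, limma). The Cox4i2 groups did not overlap, at a signal near the low end of the arrays.

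Cox6a1 read 13.08, 13.09 and 13.12 in mutant and 12.96, 12.92 and 12.90 in wild type samples, which did not overlap (0.17 ± 0.0848, adjusted p = 0.34, limma). Its counterpart of heart and skeletal muscle, Cox6a2, read 5.81, 7.09 and 5.92 in mutant and 6.70, 6.58 and 6.50 in wild type samples. Mutant replicate 2 was thus above and mutant replicates 1 and 3 below all wild type arrays, and the difference of -0.32 took a value of 0.04 with array weights. Cox7a2 read 12.08, 11.99 and 12.05 in mutant and 12.08, 12.13 and 12.05 in wild type samples (-0.05, and 0.07 when quantile normalisation was repeated without controls), and its muscle form Cox7a1 read 3.02, 3.11 and 3.03 in mutant and 2.93, 2.92 and 2.90 in wild type samples (0.13 ± 0.086). A second Cox7a2 probe set read 10.82, 10.87 and 11.03 in mutant and 11.32, 11.27 and 11.21 in wild type samples (-0.36 ± 0.0984, adjusted p = 0.11, limma).

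Cox8a read 9.40, 9.56 and 9.76 in mutant and 9.75, 9.70 and 9.50 in wild type samples (-0.08 ± 0.126), and its muscle form Cox8b 3.91, 4.28 and 4.52 in mutant and 3.88, 3.90 and 4.24 in wild type samples (0.23 ± 0.177). Both pairs of groups overlapped. The lowest difference among the complex IV genes was that of Cox6b2, known from testis, with 8.72, 9.22 and 9.64 in mutant and 9.59, 9.54 and 9.42 in wild type samples (-0.32 ± 0.215), where mutant replicate 3 was above all wild type arrays. Of 8 striated muscle markers, all 8 were measured, with medians of 3.46 to 3.71 on mutant and 3.61 to 3.79 on wild type arrays. The median difference of the 16 complex IV genes was 0.01, and 0.12 with quantile normalisation repeated without controls.

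In complex V, ATP synthase, the groups did not overlap for 10 of 17 genes (58.8%, against 24.7% of all genes), 4 higher and 6 lower in the mutant. All 17 have a mean of at least 8, and among all probe sets that bright the share was 35.0%. By limma 0 genes were called (6 at an unadjusted p under 0.05, 2 higher and 4 lower, against 17.4% of all genes). Within the catalytic head, the beta subunit gene Atp5b read 11.74, 11.59 and 11.73 in mutant and 12.14, 12.14 and 12.06 in wild type samples, without overlap (-0.43 ± 0.0924, adjusted p = 0.062, limma). The alpha subunit gene Atp5a1 read 11.20, 11.26 and 11.31 in mutant and 11.33, 11.29 and 11.13 in wild type samples on its brightest probe set (0.01, 95% confidence interval -0.22 to 0.24). Alpha and beta alternate in the head in equal number, and their brightest probe sets differed in whether the groups overlapped.

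A dimmer Atp5a1 probe set (1420037_at) rose to 6.96, 6.90 and 6.92 in mutant samples, against 6.13, 6.33 and 6.28 in wild type samples (0.68 ± 0.0952, adjusted p = 0.021, limma). The epsilon subunit gene Atp5e, in the stalk that turns within the head, read 9.91, 10.45 and 10.31 in mutant and 9.68, 9.59 and 9.42 in wild type samples. Its difference of 0.66 ± 0.157 was the highest among complex V genes and did not pass (adjusted p = 0.077, limma), but passed without mutant replicate 1 (0.82, adjusted p = 0.0074) and with array weights (0.76, adjusted p = 0.0072). The other rotor genes Atp5c1 (gamma) and Atp5d (delta) differed by 0.05 (95% confidence interval -0.22 to 0.31) and 0.11 (-0.12 to 0.34) on their brightest probe sets.

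The ring of c subunits that turns in the membrane is encoded by 3 genes, which differ in their targeting sequences and make the same mature protein. Atp5g1 read 10.21, 9.93 and 10.47 in mutant and 10.76, 10.77 and 10.62 in wild type samples, without overlap (-0.52 ± 0.146, adjusted p = 0.12, limma), the lowest difference in complex V, and passed without mutant replicate 3 (adjusted p = 0.044) and with array weights (adjusted p = 0.014). Atp5g2 read 10.10, 10.08 and 10.31 in mutant and 10.31, 10.28 and 10.05 in wild type samples (-0.05 ± 0.116), with overlap. Atp5g3 read 12.04, 12.07 and 12.14 in mutant and 12.01, 12.04 and 11.95 in wild type samples (0.08 ± 0.0878), and these groups met at their edges without overlapping on the unrounded values. Whether the 3 genes differed from each other in their response was not tested.

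Among genes of the peripheral stalk and membrane part, Atp5mpl, a small proteolipid, read 10.71, 10.80 and 10.78 in mutant and 10.46, 10.46 and 10.36 in wild type samples (0.34 ± 0.0886, adjusted p = 0.099, limma). Atp5l differed by -0.28 ± 0.0976, Atp5j by -0.23 ± 0.0881 and Atp5k by -0.22 ± 0.102, each below wild type without overlap on the brightest probe set and each short of the threshold (adjusted p from 0.18 to 0.30). Of the other Atp5k probe sets, 1450640_x_at was below wild type without overlap (-0.09 ± 0.0859), while 1434053_x_at lay above it, with 10.90, 10.95 and 10.91 in mutant and 10.83, 10.79 and 10.68 in wild type samples (0.15 ± 0.0902). Atp5o, of the stalk that holds the head, differed by -0.20 ± 0.112 on its brightest and 0.32 ± 0.182 on its other probe set, both with overlap. Atp5pb, Atp5h and Atp5md lay within 0.07 of wild type on their brightest probe sets, although Atp5h was above it without overlap. The other Atp5pb probe set was below wild type without overlap (-0.27 ± 0.0976, adjusted p = 0.19, limma), and that of Atp5h overlapped (-0.06 ± 0.104). Both Atp5j2 probe sets were below wild type without overlap (-0.14 ± 0.0845 and -0.39 ± 0.0928, adjusted p = 0.43 and 0.079, limma). The median difference of the 17 complex V genes was -0.02.

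**Figure D3:**
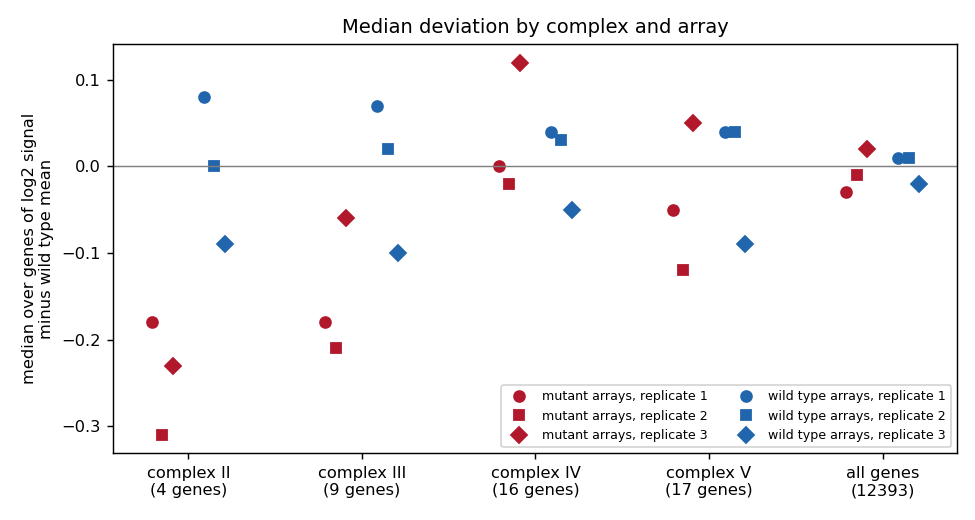
Median over genes of log2 signal minus the wild type mean (vertical axis) for complexes II to V and all genes, on 3 mutant (red, left) and 3 wild type arrays (blue, right). The mutant medians are -0.31 to -0.18 in complex II and -0.21 to -0.06 in complex III, whereas those of complexes IV and V lie on both sides of 0.

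By array, the complex II median lay at -0.18, -0.31 and -0.23 on the mutant and 0.08, 0.00 and -0.09 on the wild type arrays, relative to the wild type mean. For complex III the medians were -0.18, -0.21 and -0.06 on the mutant and 0.07, 0.02 and -0.10 on the wild type arrays. Mutant replicate 3 thus lay inside the wild type range in complex III and below it in complex II. It had the highest mutant median in complexes III, IV and V. The difference between complexes was not tested.

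Probe sets of the same gene often disagreed. Of the 26 member genes with several probe sets, 14 had differences of opposite sign (53.8%), close to the 52.8% of all 4956 such genes. The widest ranges were those of Uqcr10 (2.01), Sdhd (0.75), Cox7c (0.74), Atp5a1 (0.67) and Uqcrq (0.59), that is the genes with called probe sets. Ranges and calls rest on the same differences, so this match is not a separate result. Cox5b, with 6 probe sets, ran from -0.34 to 0.08. Of the 20 member probe sets with a mean under 8, 4 were called higher and 0 lower, and of the 66 brighter ones 0 were called higher and 2 lower. Among all probe sets 0.932% of dimmer and 0.981% of brighter probe sets were called higher, and 1.18% and 2.29% lower.

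**Figure D4:**
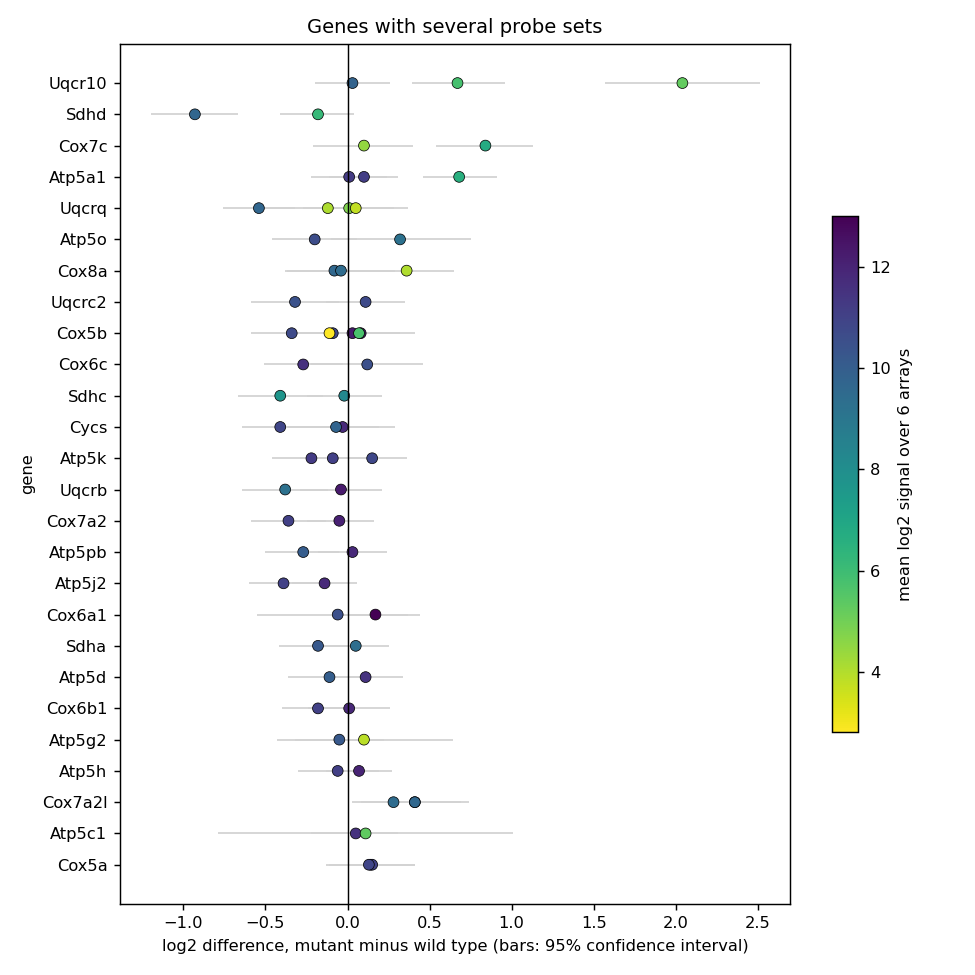
Log2 difference, mutant minus wild type (horizontal axis, bars for the 95% confidence interval), of each probe set of the 26 member genes with several, ordered by range and coloured by mean log2 signal. The called rises of Uqcr10 and Atp5a1 come from dim probe sets, and the brightest probe set of each lies at 0.03 and 0.01. The called rise of Cox7c comes from its brightest probe set, which also has a mean under 8.

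Neighbouring genes of mitochondrial metabolism were read from lists of complex I subunits, assembly factors, the citric acid cycle, regulators, general mitochondrial membrane proteins and mitophagy. In each list 0 genes were called by limma on their brightest probe set (background 0.331%). Over all their probe sets 1 of 26 regulator probe sets (3.85%) and 1 of 13 mitophagy probe sets (7.69%) were called, both higher. Among all probe sets 0.941% were called higher and 2.33% in either direction. Of 32 complex I subunits measured, 3 were higher and 6 lower at an unadjusted p under 0.05 (background 9.11% and 8.3%), and the median difference was 0.02. Ndufs3 differed by -0.44 ± 0.106 and Ndufs7 by 0.53 ± 0.128, so subunits of the arm that carries electrons to ubiquinone lay on both sides.

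Of 27 assembly factors, 2 were higher and 3 lower at an unadjusted p under 0.05 (background 9.11% and 8.3%), with a median of -0.03. Sdhaf1, which helps insert iron-sulphur clusters into Sdhb, read 7.10, 6.79 and 6.88 in mutant and 6.51, 6.56 and 6.52 in wild type samples (0.39 ± 0.108, adjusted p = 0.14, limma). Uqcc1, an assembly factor of complex III, read 6.41, 6.14 and 6.42 in mutant and 6.94, 6.86 and 6.81 in wild type samples (-0.55 ± 0.110, adjusted p = 0.082, limma), without overlap. Oxa1l, which inserts proteins into the inner membrane, differed by -0.28 ± 0.106. Of 15 citric acid cycle genes 0 were higher and 2 lower at that level (same background), Dld (-0.31 ± 0.0983) and Idh3a (-0.38 ± 0.141), with a median of 0.00.

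Of 13 regulators, 2 were higher and 1 lower at an unadjusted p under 0.05 (background 9.11% and 8.3%). Polrmt, the mitochondrial RNA polymerase, read 7.69, 7.47 and 7.78 in mutant and 7.15, 6.98 and 6.99 in wild type samples (0.61 ± 0.115, adjusted p = 0.071, limma), and these groups did not overlap. Nrf1, whose motif was searched above, read 6.90, 7.84 and 7.77 in mutant and 6.84, 6.91 and 6.71 in wild type samples (0.68 ± 0.241, adjusted p = 0.22, limma), with mutant replicate 1 inside the wild type range. Yy1 differed by -0.39 ± 0.111. Among 14 membrane and import genes Hspd1 differed by -0.51 ± 0.106 and Phb2, a prohibitin, by 0.35 ± 0.120, and the list's median was -0.06. Of 6 mitophagy genes Pink1, a kinase that marks damaged mitochondria, read 6.96, 7.13 and 6.80 in mutant and 6.24, 6.40 and 6.43 in wild type samples (0.60 ± 0.118, adjusted p = 0.078, limma), without overlap.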

How the data were processed

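Each array measured labelled RNA of 1 sample. The deposited table holds log2 values that, per the submitters' processing notes, the authors made with GCOS and the RMA method of Affymetrix Expression Console. Versions were not given in the sources used here, nor whether all arrays were normalised in 1 run. Of 22690 rows, 64 control probe sets were left out. The platform annotation gave 1 symbol for 20380 of the other 22626, several for 691 and none for 1555, and all 47 member genes matched RefSeq (GRCm38.p6) by Entrez identifier.

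The groups were tested by limma 3.58.1 under R 4.3.3 (lmFit, eBayes, two-sided, no covariates, Benjamini-Hochberg over all probe sets, or over 12393 genes), which was tested on simulated data. Motif searches and summaries used Python 3.11.15. Members and lists were chosen with earlier results of these data known. Values on every array are given for called members, for Sdha to Sdhd, Cyc1 and Cycs, for the extreme genes of complexes III to V and for the c-ring and Cox isoforms. From each list the 3 genes of lowest p could be named. Per-array values of other genes, and other probe sets, were chosen after they were seen. Alternatives covered variance prior, array weights, normalisation, dim probe sets, replicate block, threshold, probe set choice and leaving out each array. The number of arrays limits precision.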

Additional observations from a re-analysis of the deposited data

Results flagged for a closer look

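A signal outside the gene measurements is given here. The spiked polyadenylated controls, whose group means are given above, read 11.58, 13.43 and 13.47 on mutant arrays and 8.77, 8.75 and 8.74 on wild type arrays. This is a difference of 4.07 on the log2 scale (24 probe sets, exact permutation p = 0.1, the smallest that this design allows). Its part in the results for the respiratory genes was not tested.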

How the results depend on the processing

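Shares in brackets are those called among all features under the same setting. The count of 6 called member probe sets (2.33%) was 17 with array weights (11.8%), 2 with the replicate block (0.495%), 11 at an adjusted p under 0.10 (6.13%), 3 without probe sets ending in _x_at or _s_at (2.2%), and 0 to 12 leaving out 1 array (0.159% to 11.2%). The 1 called member gene (0.331%) became 9 with array weights (10.4%), 2 with median centring (0.42%) and 3 among genes with a mean of at least 6 (1.87%). The gene count was 4 at an adjusted p under 0.10 (3.09%), and 0 to 6 leaving out 1 array (0.0% to 9.54%). With the replicate block 0 member genes were called by limma (0.0565%). There 24 member probe sets had an unadjusted p under 0.05 (17.0% of all probe sets). With the mean of all probe sets the count was also 1 (0.379%), but the gene was Uqcr10, not Sdhd. The median differences of complexes II and V and of all member genes moved by less than the spread between mutant arrays under every alternative, but the last 2 reached 0.01 without mutant replicate 2. The complex III median was -0.20 to -0.03 leaving out 1 array, and that of complex IV was 0.12 with quantile normalisation repeated without controls. The median over all genes moved by less than 0.1 under each scaling. Small differences that were not called changed sign. Repeating the quantile normalisation gave 0.08 for Cyc1, 0.06 for Cycs and 0.07 for Cox7a2, and array weights gave -0.02 for Cox4i1 and 0.04 for Cox6a2. Leaving out 1 array gave -0.06 to 0.03 for Sdhc, -0.09 to 0.09 for Cyc1, -0.12 to 0.08 for Cycs, -0.04 to 0.03 for Cox4i1 and -0.17 to 0.01 for Cox8a. The cause was not tested. Same-numbered arrays were weakly related (deviations from group means correlated at 0.06, 0.02 and 0.08 over genes). Mutant replicates 1 and 3 correlated best with the wild type array of the same number, and mutant replicate 2 with wild type replicate 1 (0.04). Whether same-numbered samples share more than a number cannot be told from such values. With the replicate block Sdhd and 1434340_at of Uqcr10 kept their calls in the probe set fit.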

Other observations

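Among members that were not called, some differed mainly among the mutant arrays. The dimmer probe set of Atp5c1 read 4.34, 5.86 and 5.88 on mutant arrays and 5.27, 5.27 and 5.22 on wild type arrays, and that of Atp5g2 read 3.35, 4.16 and 4.23 on mutant arrays and 3.85, 3.70 and 3.89 on wild type arrays. Mutant replicate 1 was the lowest array in both, as it was for Cox6b2. These members were chosen after their values were seen.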
